A study of Mus with 4 samples.

Results

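TBX3 is a T-box transcription factor, a protein that binds DNA through its T-box domain and is known mainly as a repressor of transcription. In the adult liver it marks the hepatocytes around the central veins, where Wnt signalling is active. A gene end that carries such a factor may be a promoter, the stretch at the 5′ end where transcription begins, or the 3′ end, and promoters are where many repressors act. The regions described here are stretches of elevated TBX3 ChIP signal whose highest point, the summit, lies within 1 kb of either end of a protein-coding gene. There are 213 of them among 773 regions in all, or 27.6%. They touch 244 of 21631 protein-coding genes on chromosomes 1 to 19 and X, which is 1.13% of those genes.

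The ChIP experiment, 1 part of the study, asked which genes TBX3 binds in mouse primary hepatocytes. The cells carried pT2-SVNeo-EF1-eGFP-P2A-Tbx3-HA, a transposon plasmid in which an EF1 promoter drives eGFP together with HA-tagged Tbx3, so the protein was overexpressed and was pulled down by its HA tag. There were 2 TBX3 ChIP libraries and 2 Input libraries, the latter being sheared chromatin before immunoprecipitation, and all 4 came from cells with the transgene. A library from a control antibody or from cells without the transgene was not analysed here. The data are 1 deposited track along the mm10 (GRCm38) genome, and each of its values, called the score, is the −log10 of a Poisson p-value for the ChIP reads over a base against the level expected from Input. The track has no value per library and does not say which of the 4 libraries entered it, so no score below carries a replicate error and no difference between regions was tested.

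The members were selected on the score itself. A region is a stretch of 200 bp or more in which the score stays at or above 3, with dips of no more than 30 bp bridged, and the gene ends are those of RefSeq. The scores, lengths and distances of the members are therefore a description of what was chosen. From each score the number of ChIP reads over the base (the pileup) and the expected number were inferred, and both were found for all 213 summits. The genome-wide expected level is 2.43 reads, and it is the level that applied at 178 of the 213 summits (83.6%). At that level 7 reads give a score of 2.44 and 8 reads a score of 3.02, so the threshold of 3 asks for at least 8 reads. The gene table holds no strand, so which ends are 5′ ends was not analysed here.

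Summit scores of the members ran from 3.65 to 43.58, with a median of 7.96 and quartiles of 5.75 and 9.85. Pileups ran from 9 to 176 reads with a median of 15, and the median fold of pileup over expected level was 5.75. The score moves in whole-read steps, so the 213 summits share only 47 distinct scores, and 30 of them sit at 5.75, the value of 12 reads at the genome-wide level. A score of at least 10 was reached by 50 members and a score of at least 20 by 12. Lengths ran from 200 to 896 bp with a median of 271 bp.

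The highest member lay beside Lrig1, which encodes a transmembrane protein that lowers ERBB receptor signalling. Its region on chromosome 6 spans 94700196 to 94700859, and the summit, 99 bp outside the gene, had 47 reads against 2.43 expected, a 19.3-fold excess and a score of 43.58. The second lay within 1 kb of the ends of Mkks, a chaperonin-like gene needed to assemble the BBSome of the cilium, and Slx4ip, a partner of the SLX4 nuclease scaffold, with 38 reads and a score of 32.27. The third lay at the overlapping ends of Myo9b, a myosin with a RhoGAP domain, and Haus8, a subunit of the augmin complex that nucleates microtubules in the spindle, with 37 reads and a score of 31.06. The summits of these 2 shared regions lay 126 bp from Mkks and 319 bp from Slx4ip, and 60 bp from Myo9b and 111 bp from Haus8, inside Slx4ip and inside Haus8 respectively. A single track cannot assign such a summit to either neighbour.

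Next in rank came the shared ends of 2810408A11Rik and Neurl4, the latter a regulator of centriole proteins, with a score of 29.87, and of Clk4 and BC049762, with 28.69. Clk4 encodes a kinase that phosphorylates splicing factors. Stip1, which encodes the co-chaperone that links HSP70 to HSP90, followed with 34 reads and a score of 27.52. Tedc1, which encodes a protein of the centriole, had 31 reads and a score of 23.71. The 5 highest folds belonged to Lrig1, Mkks/Slx4ip, Myo9b/Haus8, 2810408A11Rik/Neurl4 and Clk4/BC049762, from 19.3 down to 14.4. Of the 10 highest members 4 lay within 1 kb of the ends of more than 1 gene.

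**Figure D1:**
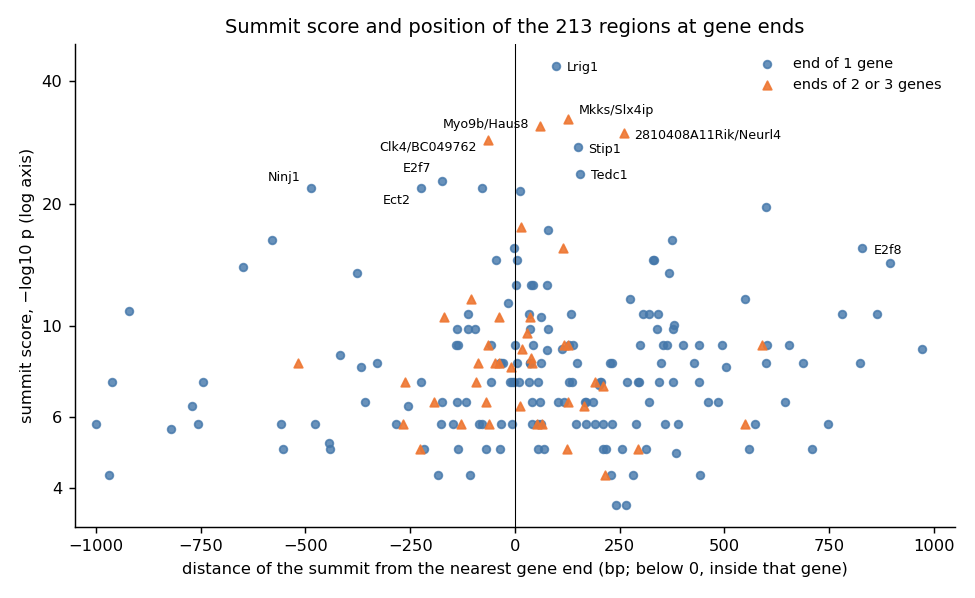
Summit score (−log10 p, log axis) of each of the 213 regions against the distance of its summit from the nearest protein-coding gene end, with negative distances inside that gene. Triangles mark regions within 1 kb of the ends of more than 1 gene, and 68 of the 213 points lie within 100 bp of an end.

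E2f7 and E2f8, the atypical E2F factors that repress cell cycle genes and take part in polyploidisation of hepatocytes, ranked 8 and 18. The E2f7 region on chromosome 10 spans 110745443 to 110745758, with its summit 174 bp inside the gene, and the E2f8 region on chromosome 7 spans 48882763 to 48883105, with its summit 830 bp outside the gene. There were 31 reads against 2.69 expected at E2f7, an 11.5-fold excess, and 23 reads against 2.43 at E2f8, a 9.45-fold excess. Beside E2f8 a second region with a summit score of 8.13 lay 1248 bp from the gene and so past the 1 kb limit. The other 17 genes of the E2F and pocket protein list had no region at an end.

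Ect2, which encodes the exchange factor that activates RhoA at cytokinesis, had 29 reads, a score of 21.85 and the third longest region, 788 bp, with the summit 223 bp inside the gene. The same score was reached 487 bp inside Ninj1, whose product ruptures the plasma membrane in lytic cell death, and 79 bp inside Ankrd10. Dhrs9, a short-chain dehydrogenase of retinoid and steroid metabolism, followed with 21.51. Below a score of 20 came Cltc, the clathrin heavy chain, with 19.68, the shared end of Lsm7 and Sppl2b with 17.49, and H2az2, a gene of the histone variant H2A.Z, with 17.28. Zc3h8 and Zfpm1 had 16.27 each, and Parp6 and the shared end of Rab6a and Mrpl48 had the same 15.53 as E2f8. Pim1, 3110040N11Rik, Hinfp and Pkm stood at 14.54 and Bicdl1 at 14.28, which closes the 25 highest. Hinfp encodes an activator of histone H4 genes, Pim1 a growth-promoting kinase and Pkm the pyruvate kinase of glycolysis.

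**Figure D2:**
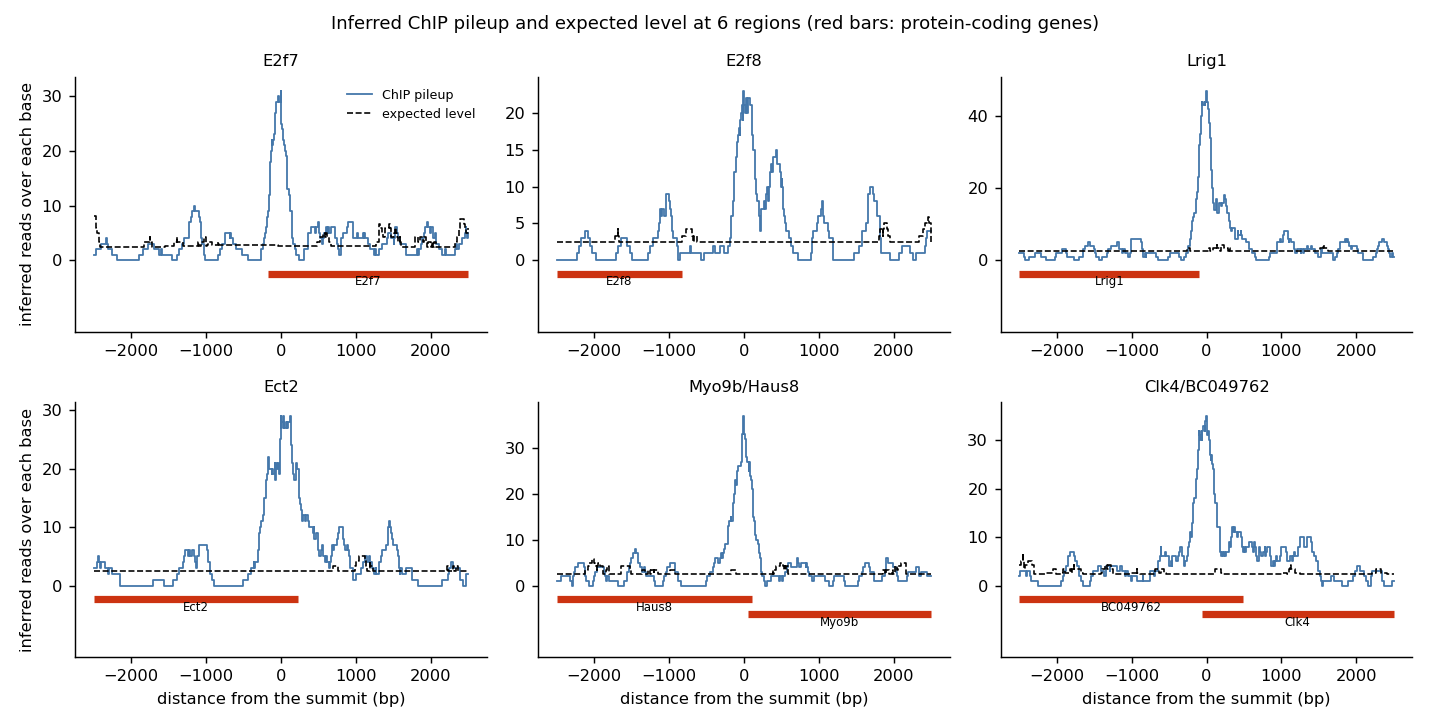
Inferred ChIP pileup (solid line, reads over each base) and expected level (dashed line) within 2500 bp of the summit at 6 regions, with red bars for protein-coding genes. The summits stand at 31 reads for E2f7, 23 for E2f8, 47 for Lrig1, 29 for Ect2, 37 for Myo9b/Haus8 and 35 for Clk4/BC049762, while the expected level at each is below 3 reads.

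The longest regions were those of 2810408A11Rik/Neurl4 with 896 bp, Rab6a/Mrpl48 with 821 bp, Ect2 with 788 bp, Lrig1 with 664 bp and Eif5a with 645 bp. The plot of pileup by position shows a shoulder on the side of the Lrig1 summit away from the gene, shoulders on both sides of the Ect2 summit, a second peak beside E2f8, and at Clk4/BC049762 a lower peak of 12 reads, called as a region of its own, in the overlap of the genes. At E2f7 a separate peak of 10 reads stood outside the gene, more than 1 kb from the summit. In the members as a group, without the 3 over high Input, the mean pileup fell from 15.9 reads at the summit to 5.02 at 250 bp, 3.18 at 500 bp and 2.42 at 1000 bp. The mean expected level was 2.45 at the summit and 2.65 at 1000 bp. Inside the member regions 97.0% of the changes in inferred pileup between neighbouring intervals were of 1 read, and the largest was of 3 reads. The inference itself favours small changes, so this share is in part set by its construction.

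**Figure D3:**
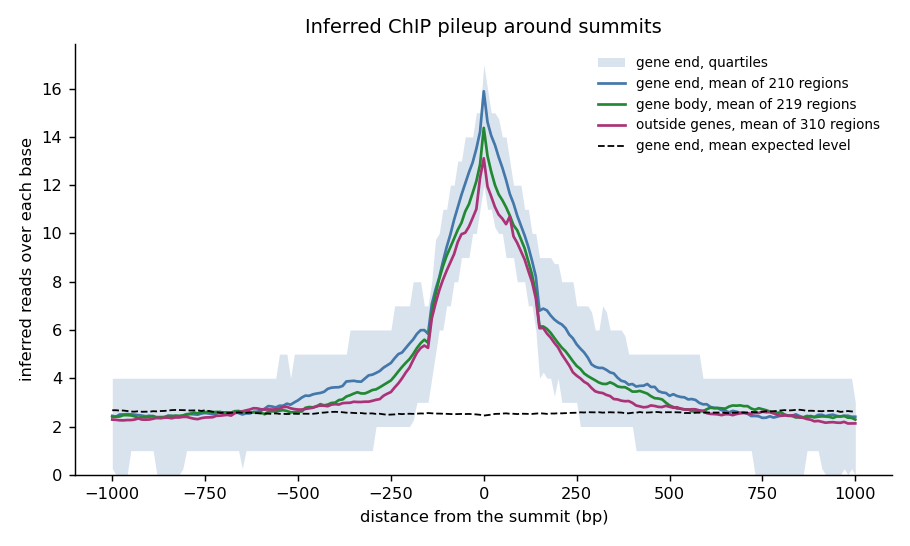
Mean inferred ChIP pileup (reads over each base) by distance from the summit for regions at gene ends (210), inside gene bodies (219) and outside protein-coding genes (310), leaving out regions over high Input. The shaded band holds the quartiles of the gene-end regions, whose mean falls from 15.9 reads at the summit to 2.42 at 1000 bp, beside a mean expected level (dashed) of 2.65 there.

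Regions were densest next to the gene ends. Of the 213 summits 39 lay within 50 bp of an end, 68 within 100 bp (31.9%) and 128 within 250 bp (60.1%, exact 95% binomial interval 53.2 to 66.7%, for counting error only). Such intervals, here and below, count regions as if independent, and regions are not replicates, so they measure no spread between samples. Per 100 bp of distance there were 68 regions from 0 to 100 bp, 40 from 101 to 250 bp, 20.8 from 251 to 500 bp and 6.6 from 501 to 1000 bp. Past the limit used to choose members the figure went on down, to 3.8 from 1001 to 2000 bp and 1.77 from 2001 to 5000 bp. Among the members the median score did not follow the distance, at 8.13 within 100 bp, 6.83 from 101 to 250 bp, 7.31 from 251 to 500 bp and 8.13 from 501 to 1000 bp. For regions past the limit it was 6.44 from 1001 to 2000 bp and 6.51 from 2001 to 5000 bp. Summits lay outside the nearest gene in 135 members and inside it in 78 (36.6%, exact 95% binomial interval 30.1 to 43.5%), and 122 (57.3%) lay in no protein-coding gene at all. The median score was 8.13 outside and 7.31 inside, which is a step of 1 read.

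A summit within 1 kb of the ends of at least 2 genes was found for 42 members (19.7%, exact 95% binomial interval 14.6 to 25.7%). Among all 43262 ends of protein-coding genes, 14.6% have the end of another protein-coding gene within 1 kb. The 2 shares are not like for like, since a summit can lie between ends that are up to 2 kb apart. Only 1 member touched 3 genes, namely Nup62, Il4i1b and Atf5. Ends of noncoding genes lay within 1 kb of 34 members (16%), against 6.67% of all protein-coding gene ends, and ends of long noncoding RNA genes within 1 kb of 28 (13.1%, against 5.19%). Ect2, Cltc, Parp6 and Pkm among the 25 highest have such a long noncoding RNA neighbour. The shares for members are measured from the summit and those for all ends from the end itself. The latter count 5′ and 3′ ends alike, and whether the members' ends are more often 5′ ends was not tested. The member genes themselves had a median length of 19370 bp, against 17329 bp for all protein-coding genes.

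Of the 229 member genes that are at least 3000 bp long, only Gm32584 had regions at both ends, and its expected levels were high. Of all 43262 protein-coding gene ends, 0.576% have a member summit within 1 kb. For the other 228 the opposite end is by definition the one without a called region, and the highest score within 1 kb of it had a median of 1.90 and quartiles of 1.42 and 2.44. Over all ends of protein-coding genes of that length the median was also 1.90, with quartiles of 1.40 and 2.44. A score of at least 3 was reached at 18.4% of the opposite ends and at 16.3% of all ends. A score of at least 5 was reached at 2.63% and 1.88%.

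Some genes carried more than 1 region. Nus1, which encodes a subunit of the dehydrodolichol diphosphate synthase, had 3 regions at scores of 8.13, 5.75 and 5.61. Mlec, an ER lectin gene, had 2 with the same score of 8.98, and Fbrs had 2 at 13.56 and 7.31. The same held for Lnpep, Snrnp70, Pcx, Gm32584 and the shared ends of Clk4/BC049762 and Fam104a/D11Wsu47e. Not all of these are well separated, since dips longer than 30 bp split a region. The pairs at Fbrs, Pcx and Fam104a/D11Wsu47e would each be joined if dips of up to 100 bp were bridged. In all, 11 of the 244 genes had 2 or more regions, and 17 members had another member within 2 kb. Another member lay within 100 kb for 45 of the 213.

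On chromosome 10 a stretch of 1 Mb from 80577617 held 8 members, the most of any 1 Mb stretch that starts at a member, in which 59 protein-coding genes lie. They sit at Klf16, Csnk1g2, Izumo4/Mob3a, Lsm7/Sppl2b, Thop1, Eef2, Apba3/Mrpl54 and Cactin/Pip5k1c, with scores from 7.15 to 17.49. Members were unevenly spread over the chromosomes. A region at an end was found for 2.98% of the 705 genes on chromosome 19, 2.9% of the 1001 on chromosome 10 and 2.11% of the 1609 on chromosome 11, against 0.226% of the 1328 on chromosome 4. None of the 966 genes on X had one, although 24 regions were called on X. The inferred ChIP depth, relative to the autosome median, was 1.40 on chromosome 10, 1.19 on chromosome 19, 1.02 on chromosome 11, 0.701 on chromosome 4 and 1.09 on X.

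With the expected level raised to the depth of each chromosome where that depth is above the median, 155 of the 213 members (72.8%) were still called. On chromosome 10 these were 12 of 25, on chromosome 19 11 of 18 and on chromosome 11 18 of 26. All 25 of the highest members were among the 155, E2f7 on chromosome 10 included. Of the 8 members in the 1 Mb stretch 7 were still called, and the one at Klf16 was not. The 3 regions at Nus1, also on chromosome 10, were lost. Members on chromosomes at or below the median depth could not be lost under this setting. At the genome-wide level 8 reads give a score of only 3.02, so a small rise can take such bases below 3. Chromosome 13, at a relative depth of 1.05, kept 3 of 7 members. The losses therefore do not measure the effect of depth. The part that depth plays in the spread of the lower members was not tested.

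**Figure D4:**
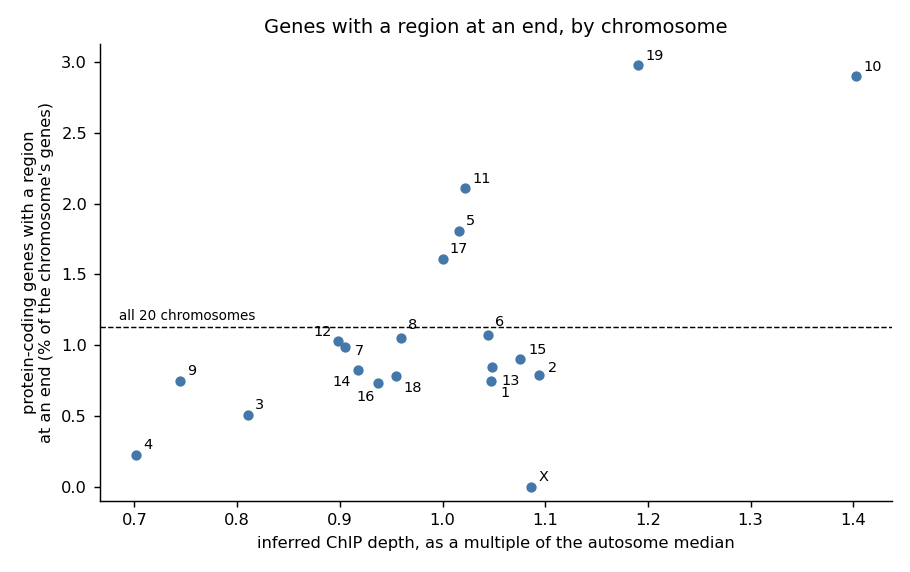
Share of each chromosome's protein-coding genes with a region at an end (%) against the inferred ChIP depth as a multiple of the autosome median, 1 point per chromosome. The dashed line is the share over all 20 chromosomes, 1.13%. Chromosomes 10 and 19 have the greatest depths and the highest shares, while X has none at a depth of 1.09.

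Gene lists by function were set against the 1.13% of all protein-coding genes that have a region at an end. The lists were written with several of the highest members already known, so a share above 1.13% is not independent evidence about a list. Each count speaks for the listed genes alone, since genes of the same function stand outside the lists, such as the centriole gene Tedc1 among the members named above. Of the 774 listed genes 31 (4.01%) had a region. The 31 are genes and not separate regions: Mkks and Slx4ip share 1 summit, as do Myo9b and Haus8, and each summit counts in 2 lists. Among genes of cell division, 1 of 29 G1 and S phase cyclins and CDKs (Cdk4, 7.31), 1 of 41 mitosis genes (Ect2), 1 of 26 augmin and centrosome genes (Haus8), 1 of 42 replication genes (Mcm2, 5.01) and 2 of 56 repair genes (Bard1, 7.31, and Slx4ip) had one. Cdk4 drives cells through G1, Mcm2 is part of the replicative helicase and Bard1 is the partner of BRCA1. Apart from E2f7, E2f8, Ect2, Haus8 and Slx4ip, the regions at these genes had at most 14 reads and were not called at a cutoff of 5.

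Of 45 chaperone genes 4 had a region at an end: Stip1 with 27.52, the chaperonin subunit gene Cct7 with 7.31, the HSP40 gene Dnajb1 with 6.51 and the ER chaperone gene Hsp90b1 with 5.75. Of 50 splicing genes there were 4: Clk4 with 28.69, the branch-point binding factor Sf1 with 11.44, Prpf19 with 6.51 and Snrnp70, the U1 protein gene, with 5.75. Translation factors and cytoplasmic ribosomal proteins gave 2 of 47, namely Eif5a with 13.56 and the elongation factor Eef2 with 10.05. The membrane traffic list, in which the RhoGAP myosin Myo9b was placed, gave 5 of 51. They are Myo9b, Cltc and Rab6a above, and the small GTPases Arf4 and Rab11b at 5.75 each. The summits at Myo9b and Rab6a are shared with Haus8 and Mrpl48. Those at the chaperone genes Cct7 and Hsp90b1 are shared with Pradc1 and Ttc41. The list of mitochondrial respiration and ribosome genes gave 2 of 49, Cox15 with 8.13 and Ndufv1 with 5.75. The Cox15 summit is shared with Cutc. The cilium list gave Mkks alone of 35, the ubiquitin list Neurl4 alone of 52 and the polymerase II list the Mediator subunit Med6 alone of 45, with 8.98.

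Of 38 genes of ERBB signalling and its inhibitors, Lrig1 and Dusp6 had a region. Dusp6 encodes a phosphatase that switches off ERK, and its region had 12 reads and a score of 5.75, against 43.58 at Lrig1. Of 45 Wnt pathway genes Sp5, a direct target of Wnt signalling, was the only one, with 12 reads and a score of 5.75. The regions at Dusp6 and Sp5 were not called at a cutoff of 5. None of 34 hepatocyte genes, none of the 54 chromatin regulators listed and none of 17 T-box genes had a region at an end. At the share of 1.13% over all protein-coding genes, lists of this size would often hold none. Chromatin genes outside that list, picked out after their values were seen, were members, such as the histone chaperone gene Asf1b with 8.98 and the methyltransferase gene Kmt5c with 7.31. The median over the hepatocyte genes of the highest score at either end was 2.44, the same as over all protein-coding genes, and it was 1.90 for the listed chromatin regulators and for the T-box genes. The lists were written with several of the highest members known, and stricter settings mostly keep high members. At a cutoff of 5, 16 of the 774 listed genes kept a region, against 68 of all 21631 protein-coding genes (0.314%). With each read pair counted once 15 did, against 58 (0.268%). That setting divides pileup and expected level by 2, with odd pileups rounded down, as if the mates of a pair had been counted separately. Whether they were is not stated.

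**Figure D5:**
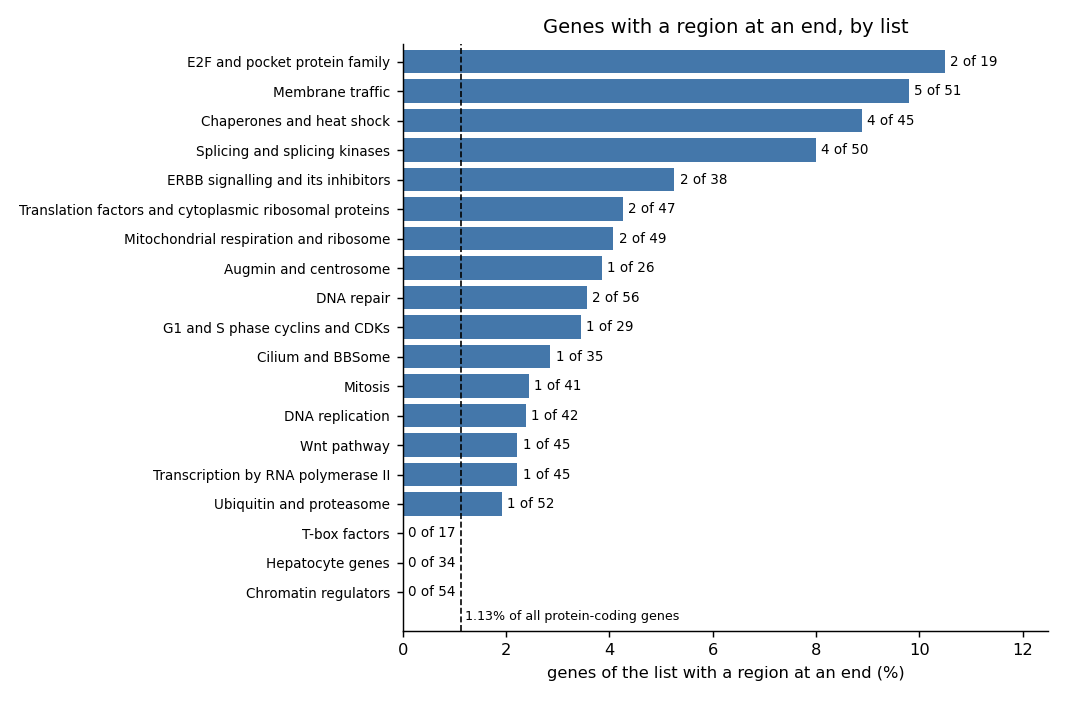
Share of the genes in each of 19 lists that have a region at an end (%), with the count beside each bar. The dashed line is the 1.13% of all protein-coding genes. The E2F list stands highest with 2 of 19, and the lists of T-box factors, hepatocyte genes and chromatin regulators hold none of the listed genes with a region. At the share over all genes, lists of this size would often hold none.

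Set beside the other regions, members had a greater median length and a higher median score on this track. Median lengths were 271 bp at gene ends, 236 bp for 223 regions inside gene bodies and 234 bp for 337 regions outside protein-coding genes. The longest region had 896 bp at gene ends, 1014 bp inside gene bodies and 5817 bp outside genes. Median scores were 7.96, 6.51 and 5.75, and median pileups 15, 13 and 12 reads. The highest score of all, 77.01, was nevertheless inside the gene body of Stab2, and the next highest inside gene bodies were Phldb2 with 34.71 and Oxsr1 with 29.87. Outside genes the highest 3 were between 27.11 and 37.20, and the one at 29.02 had 241 reads at a fold of only 2.27. At a cutoff of 5, 25.8% of the members were still called, against 14.3% inside gene bodies and 10.4% outside genes. With each read pair counted once the shares were 22.5%, 13% and 8.9%. Expected levels that reached 4 times the genome-wide one were found at 1.41% of the members, 1.79% of the gene-body regions and 8.01% of those outside genes. These are counts on the track that chose the regions, and no difference between the groups was tested.

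Regions over high Input were rare among the members. They were 1 at Lars2, the gene of the mitochondrial leucyl-tRNA synthetase, and 2 at Gm32584. At Lars2 there were 176 reads against 93.5 expected, so the score of 13.99 rests on a fold of 1.88. At Gm32584 the folds were 2.79 and 1.47. Without these 3 the median score was 7.63 and the median fold 5.86. Among the other 210 members the expected level never exceeded 3.34 reads, and their lowest fold was 3.70, at Atf4 and Ece1.

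Dividing pileup and expected level by 2, as for read pairs counted once, lowers scores by its construction. Odd pileups were rounded down, which lowers them further. A member is then lost where its run at or above 3 becomes shorter than 200 bp. Of the 25 highest members 21 were still called, of the 100 highest 47, and of the 113 below them 1. Among the 25 highest, Parp6, Pim1, Hinfp and Bicdl1 were lost. The score at the summit then became 22.2 at Lrig1, 11.8 at E2f7 and 8.14 at E2f8, each still within a called region.

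The thresholds cut through a continuous range of values. Without a minimum length 8171 runs would lie at gene ends, and 1246 are at least 100 bp long. Yes1, H4c14 and P4ha1 are members at exactly 200 bp with scores of 8.13, 7.31 and 5.01, while runs of 199 bp at Stk32c, Cd2ap and Best1/Fth1 are not, with 5.01 each. A run at Nfib with a score of 14.54 was left out at 190 bp. By distance the outermost members are Rbm15 at 1000 bp, Ccl20 at 972 bp and Lyst at 968 bp. The nearest regions past the limit lay 1046 bp from Atf6 and 1062 bp from Cdk2ap2, both with a score of 6.51. By score the lowest members are Ece1 and Atf4, each with 9 reads and 3.65.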

How the data were processed

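Chromatin of Tbx3-HA-overexpressing mouse primary hepatocytes was immunoprecipitated with anti-HA antibody (2 libraries) and compared with Input (2 libraries). According to the labels' processing notes the authors used Bowtie2, SAMtools, MACS2 and build mm10. The versions, the treatment of duplicates and the way replicates were combined are not given in the sources used here. The authors deposited 1 track of −log10 p-values, in which no column holds per-sample values (0 such columns were left unused), so depth per library is unknown and no test was made.

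On chromosomes 1 to 19 and X, stretches of the deposited track at or above a score of 3 and no shorter than 200 bp were taken, bridging dips of no more than 30 bp. The summit is the middle of the highest interval. Members have a summit within 1 kb of an end of a RefSeq GRCm38 protein-coding gene. For each score, the whole-read pileup and the expected level that produce it under a Poisson distribution were looked up, where the expected level is either 2.43 reads or Input over 150, 1000 or 10000 bp scaled by 0.835. Of several matching pairs, the one with the fewest and smallest changes along the chromosome was used. Region calling and the inference were tested on simulated unpaired reads over an even background, with the background level and scale known. That test does not cover estimating these from the track, read pairs or stretches of high Input. For read pairs counted once, pileup and expected level were divided by 2, and odd pileups were rounded down. The sources used here do not state whether mates were counted separately. The members and the lists were chosen with earlier results of these data known. Genes named are E2f7 and E2f8, those at the 25 highest members, the 5 longest, the 5 highest and 5 lowest folds, list genes with a region, and regions at the thresholds. Genes named beside them, such as those with several regions or in the densest stretch, were chosen after their values were seen. Genome sequence and strand were not used here, so sequences, motifs and 5′ ends were not analysed. Scripts ran in Python 3.11.15 with scipy 1.17.1, numpy 2.4.6, matplotlib 3.10.9 and pandas 2.3.3.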

Additional observations from a re-analysis of the deposited data

How the results depend on the processing

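No paired analysis was possible because the track holds 1 value per position, from libraries it does not name, and for the same reason no replicate could be left out. The settings for 5′ ends, promoter GC content and T-box half-sites were not run, since strand and sequence were not used here. The number of regions at gene ends, 213, became 55 at a cutoff of 5, 11 at 10, 1246 with a minimum length of 100 bp, 83 with 300 bp, 324 with dips of up to 100 bp bridged and 48 with read pairs counted once. The share of protein-coding genes with such a region, 1.13%, became 0.314%, 0.074%, 5.86%, 0.458%, 1.73% and 0.268% under the same settings in that order. The median score, 7.96, became 12.6 and 27.5 at the cutoffs of 5 and 10, 5.01 and 9.85 with minimum lengths of 100 and 300 bp, and 6.51 with the longer dips. The median fold, 5.75, became 7.8, 14, 4.52, 6.98 and 5.21 in the same order. The median length, 271 bp, became 316 and 221 bp at the 2 cutoffs and 138 and 413 bp with the 2 minimum lengths. The share of regions shared by 2 or more genes, 19.7%, became 45.5% at a cutoff of 10, where only 11 regions were left. Cutoffs, minimum lengths, the bridging of longer dips and the counting of read pairs once move these values by their construction. No further cause was tested. The remaining 55 values stayed within 1.5 times of the main value for the number of regions and the share of genes, and within the 95% binomial interval of the main value for the shares of regions and the medians. That interval served as a scale only, since regions are not replicates. The 55 values include those for raising the expected level to chromosome depth (155 regions), leaving out chromosome 10 (188), limits of 500 bp (180) and 2 kb (251), the middle of the region as summit (212), noncoding genes included (242) and, chosen after seeing the data, leaving out regions over high Input (210). Others come from the settings named before, such as the share inside the nearest gene, 32.7% at a cutoff of 5 and 33.3% with read pairs counted once.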

Other observations

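Further genes with a region at an end were noticed only after their values were seen, and no test was made of any group formed from them. The histone H4 genes H4c18, H4c14, H4c11 and H4c8, 4 of the 12 in the table (33.3%, against 1.13% of all protein-coding genes), had scores of 8.98, 7.31, 5.75 and 5.01. H4 genes are known as near-identical copies, so which copy the reads came from is uncertain and was not tested here. None of the 4 was called at a cutoff of 5. The median over the 12 H4 genes of the highest score at either end was 5.68, against 2.44 over all protein-coding genes. Hinfp, whose product activates H4 genes, had 14.54 as given above.

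Of 78 genes of mitochondrial ribosomal proteins 4 had a region at an end (5.13%, against 1.13% of all protein-coding genes), and the median of the highest score at either end was 2.44, as over all genes. They are Mrpl48 with 15.53, Mrpl54 with 11.66, Mrps18b with 10.54 and Mrpl49 with 8.13, each at a summit shared with a neighbouring gene (Rab6a, Apba3, Ppp1r10 and Fau). Sesn2 had a score of 11.66 and was still called at a cutoff of 5. Slc3a2 with 12.60, the shared end of Ddit3 and Mbd6 with 5.75, and Atf4 with 3.65 were not. Nor was the region with 5.01 whose summit lies within 1 kb of Nup62, Il4i1b and Atf5. Summits within 1 kb of a tRNA gene end were found for 2 members, at Ctnna3 and H4c8, or 0.939%, and 0.0994% of all protein-coding gene ends have one within 1 kb.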
